A study of Mus musculus with 6 samples.

Results

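The lysyl oxidase family comprises 5 genes in the mouse, Lox, Loxl1, Loxl2, Loxl3 and Loxl4, and was taken as the rows of the deposited count table that carry those symbols. All 5 were found among 41388 genes, and all 5 were among the 15186 genes with enough counts to be tested. The libraries came from primary fibro-adipogenic progenitors, mesenchymal cells of skeletal muscle that make much of its matrix, taken from wild-type male mice. Per the labels, these cells were kept in DMEM with Glutamax, 10% FBS, 2.5 ng/mL hFGF and 2% P/S at 5% CO2. They were given vehicle, or prostaglandin E2 (PGE2) at 500 nM, 1 time per day on 2 days, with 3 polyA RNA libraries per group. The single comparison asks how their transcripts respond to PGE2, a lipid mediator that acts through G protein-coupled receptors. Whether the 3 libraries of a group are separate mice or cultures is not in the labels, and p-values therefore cover the spread among these libraries, possibly technical.

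Lysyl oxidases are secreted copper enzymes that oxidize the side chains of lysines in collagen and elastin, and the aldehydes formed join neighbouring chains into covalent cross-links. Lox and Loxl1 are made as proenzymes that are cleaved outside the cell, and Loxl1 is best known for its part in elastic fibres. Loxl2, Loxl3 and Loxl4 carry scavenger receptor cysteine-rich domains in front of the catalytic domain, and Loxl2 also acts on collagen IV of basement membranes. In muscle, cross-linking of the matrix laid down by fibroblast-like cells is one source of the stiffness of fibrotic tissue.

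The catalytic domain, with its copper-binding histidines, is the most alike part of these enzymes, and the coding sequence around those histidines shows how far reads from the members can be told apart. It is given for 4 of the 5 members, from the longest GENCODE M21 transcript on mm10, 5′ to 3′, with capitals for the 29 of 51 bases that all 4 share.
Loxl1: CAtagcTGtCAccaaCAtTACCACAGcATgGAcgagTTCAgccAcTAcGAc
Loxl2: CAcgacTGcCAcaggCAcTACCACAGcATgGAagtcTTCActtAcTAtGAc
Loxl3: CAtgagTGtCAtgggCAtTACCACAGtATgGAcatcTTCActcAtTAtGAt
Loxl4: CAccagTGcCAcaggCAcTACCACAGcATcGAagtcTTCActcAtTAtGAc
The stretch spans transcript bases 1735 to 1785 in Loxl1, 2143 to 2193 in Loxl2, 1957 to 2007 in Loxl3 and 1937 to 1987 in Loxl4. The longest run of identical bases between any 2 of the 5 transcripts was 32, between Lox and Loxl1, and the reads were 100 bases long. No window of 100 bases was shared between members.

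Loxl2 has a close copy elsewhere. Of its 5217 windows of 100 bases, 43.1% also occur in Gm21451, an unprocessed pseudogene on the same chromosome, and how the authors' counting treated such reads is not given in the sources used here. Gm21451 itself held between 1.66% and 2.14% as many counts as Loxl2 in the 6 libraries. Adding its counts to Loxl2 gave log2 fold changes of 0.39 without and 0.38 with the pairing described below. Loxl3 shares 535 exon bases with Htra2, a gene on the opposite strand, and Htra2 held between 7.18% and 12.6% as many counts as Loxl3. The strand setting of the counting is not given in the sources used here, and reads from that overlap cannot be assigned to one gene. Loxl2 exons also overlap the antisense gene Gm27177 over 301 bases, but that gene was listed at 0 counts in all 6 libraries. An antisense gene overlaps 30 exon bases of Lox.

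Library totals ranged from 21006044 counts in vehicle library 2 to 52730962 in PGE2 library 2. CPM values are counts scaled to library size after normalization, and a count of 3 was worth between 0.0582 and 0.142 CPM. The progenitor marker Pdgfra was at 1122 to 1455 CPM in vehicle and 1126 to 1406 CPM in PGE2 libraries. The leukocyte gene Ptprc was listed at 0 in all libraries, and the endothelial gene Pecam1 did not exceed 0.254 CPM. Tek, the most abundant gene of the endothelial list, was at 16.0 to 39.7 CPM in vehicle and 14.9 to 27.4 CPM in PGE2 libraries. Summed over 10 myogenic genes, vehicle libraries 1 to 3 held 191, 62.7 and 41.1 CPM and PGE2 libraries 1 to 3 held 123, 15.7 and 15.2 CPM, so both libraries numbered 1 stood highest in their group. Summed levels were 513 to 766 CPM in vehicle and 889 to 1231 CPM in PGE2 libraries for 8 pericyte and smooth muscle genes, most of it the smooth muscle actin gene Acta2 (mean 534 and 955 CPM), 8.57 to 9.22 and 11.5 to 12.3 CPM for 6 macrophage and leukocyte genes, and 6.91 to 8.09 and 4.24 to 5.10 CPM for 5 Schwann cell genes, of which Sox10 was at 0. Summed levels overlapped between groups for 6 adipocyte genes (33.5 to 67.5 and 20.9 to 47.7 CPM), for 6 tendon genes (14.1 to 32.7 and 12.5 to 25.5 CPM) and for 6 endothelial genes, where Cldn5 was at 0 (21.0 to 46.4 and 18.9 to 33.0 CPM). Fewer cells of a type and less RNA per cell cannot be told apart in such bulk samples.

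The same numbers, 1 to 3, occur in both groups. Libraries with the same number deviated together from their group means, most clearly those numbered 1, as detailed in the account of the processing. Each gene is therefore given from an unpaired fit and from a paired fit with the number as a block. In the unpaired fit, edgeR's quasi-likelihood test with Benjamini-Hochberg adjustment called 0.342% of all tested genes at an adjusted p under 0.05, and in the paired fit it called 14.4%, with 6.91% of tested genes higher and 7.51% lower under PGE2. An unadjusted p under 0.05 was reached by 20.1% of tested genes in the unpaired fit, and without pairing DESeq2 called 7.27% of the genes it gave an adjusted p and limma-voom 0.0988%.

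Marker lists moved in the paired fit, and their part in the family's changes was not tested. That fit called 6.91% of all tested genes higher and 7.51% lower, as given above. Of 10 progenitor markers, all tested, Ly6a (0.62), Thy1 (0.73) and Pi16 (0.98) rose, Cd34 (-0.59) and Lum (-0.66) fell, and Pdgfra (0.01) did not pass. Of the 8 pericyte and smooth muscle genes, Acta2 (0.85) and Cnn1 (1.04) rose while the pericyte markers Rgs5 (-0.95), Cspg4 (-0.84) and Notch3 (-0.47) fell. Kcnj8 (0.54), Abcc9 (0.01) and Myh11 (0.31) did not pass. With the length offset described below, Cspg4 alone of these 8 passed (-0.64). Fewer than all genes of the other lists were tested: 4 of 4 adipocyte, 6 of 8 myogenic, 2 of 3 Schwann cell, 1 of 4 endothelial (Tek, -0.42) and 1 of 5 tendon genes fell, and 2 of 3 macrophage and leukocyte genes rose. With the length offset 3 of 8 myogenic genes fell, and 1 of 3 macrophage and leukocyte genes rose. Of the 10 progenitor markers 5 then rose and 2 fell. The adipocyte, Schwann cell, endothelial and tendon counts stayed the same. The adipocyte, myogenic, endothelial and tendon sums were lower under PGE2 in all 3 numbered pairs.

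PGE2 raised 3 of the 5 family members in the paired fit, namely Lox, Loxl1 and Loxl2, and lowered none. Of all tested genes, that fit called 6.91% higher and 7.51% lower. Loxl1 rose by 0.44 ± 0.085 on the log2 scale (SE, edgeR adjusted p = 0.00925), Loxl2 by 0.38 ± 0.073 (adjusted p = 0.00855) and Lox by 0.38 ± 0.111 (adjusted p = 0.0465). Loxl3, at 0.18 ± 0.088 (adjusted p = 0.184), and Loxl4, at 0.24 ± 0.091 (adjusted p = 0.0968), did not pass. Without pair 2 none of the 5 passed, with edgeR adjusted p from 0.0506 for Loxl2 to 0.693 for Loxl3. In the unpaired fit 0 of the 5 passed, with 2 of them, Loxl1 and Loxl2, at an unadjusted p under 0.05. DESeq2 without pairing called 1 member, Loxl1, and limma-voom called 0. The median log2 fold change of the 5 members was 0.39 unpaired and 0.38 paired, and that of all tested genes was -0.0010 and -9.2e-05.

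**Figure D1:**
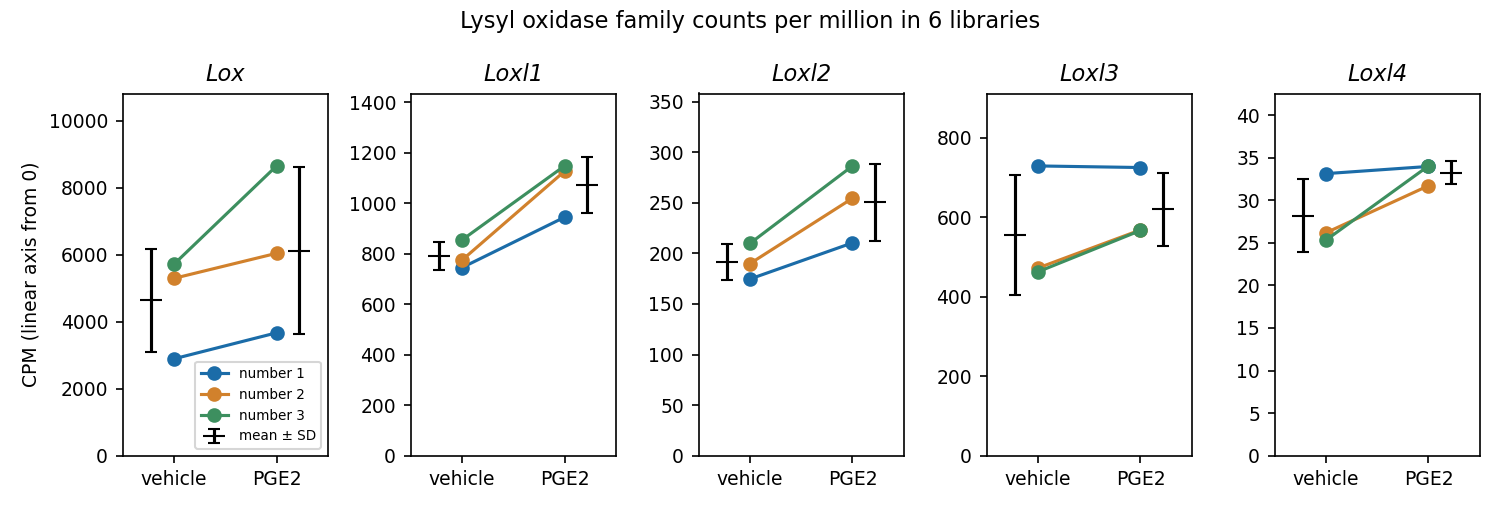
CPM of each family member (linear y axes from 0, 1 scale per gene) in vehicle and PGE2 libraries, with lines joining libraries of the same number and black bars for the mean ± SD of 3 libraries. Lines rise in all 3 pairs for Lox, Loxl1, Loxl2 and Loxl4, while the Loxl3 line of number 1 is level at 729 and 725 CPM.

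Lox (ENSMUSG00000024529, chromosome 18, 52516067 to 52529867 on the minus strand of mm10) encodes the founding enzyme of the family, the main collagen and elastin cross-linker. Vehicle libraries 1 to 3 had 2892, 5295 and 5717 CPM of it, and PGE2 libraries 1 to 3 had 3669, 6043 and 8652 CPM. The groups overlapped, since vehicle libraries 2 and 3 lay above PGE2 library 1. Vehicle libraries alone spanned a 1.98-fold range, wider than the 1.27-fold, 1.14-fold and 1.51-fold differences within pairs 1 to 3. The means were 4635 ± 1524 and 6121 ± 2493 CPM (SD, n = 3 each), and the unpaired log2 fold change was 0.40 ± 0.370 (edgeR adjusted p = 0.583). Its paired call lay close to the threshold: with library totals alone as scaling the adjusted p was 0.0700, and it was 0.135 without pair 1, 0.140 without pair 2 and 0.0224 without pair 3, where the log2 fold change was 0.26. Leaving out a single library moved the unpaired value between 0.07 (without PGE2 library 3) and 0.67 (without PGE2 library 1), and without vehicle library 1 it was 0.14.

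Lox was among the most abundant transcripts of these cells. It took between 0.296% of all counts in vehicle library 1, where it ranked 14 among all genes, and 0.834% in PGE2 library 3, where it ranked 4.

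Loxl1 (ENSMUSG00000032334, chromosome 9, 58287738 to 58313186, minus strand) was the member whose groups stood farthest apart relative to their spread. It was at 745, 775 and 855 CPM in vehicle libraries and at 945, 1127 and 1149 CPM in PGE2 libraries. Every PGE2 library lay above every vehicle library, which held in this direction for 13.7% of all tested genes and in the other for 12.2%. The means were 792 ± 56.6 and 1074 ± 112 CPM (SD, n = 3 each), and the unpaired log2 fold change was 0.44 ± 0.112 (edgeR adjusted p = 0.121, unadjusted p = 0.00493). Pairs 1 to 3 differed by 1.27-fold, 1.45-fold and 1.34-fold. Without pair 2 the paired adjusted p was 0.117, and without pairs 1 and 3 it was 0.0138 and 1.6e-06.

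Loxl2 (ENSMUSG00000034205, chromosome 14, 69609068 to 69695834, plus strand) was at 175, 190 and 210 CPM in vehicle libraries and at 210, 255 and 287 CPM in PGE2 libraries. PGE2 library 1, at 210.4 CPM, lay just above vehicle library 3, at 209.9 CPM, so the groups did not overlap but touched. The means were 191 ± 17.6 and 251 ± 38.2 CPM (SD, n = 3 each), with an unpaired log2 fold change of 0.39 ± 0.127 (edgeR adjusted p = 0.168). Within pairs 1 to 3 Loxl2 was 1.20-fold, 1.34-fold and 1.37-fold higher. The paired adjusted p was 0.0506 without pair 2, 0.00958 without pair 1 and 5.5e-06 without pair 3.

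Loxl3 (ENSMUSG00000000693, chromosome 6, 83034173 to 83052562, plus strand) is known from mouse mutants for palate, spine and muscle attachment defects. It was at 729, 472 and 463 CPM in vehicle libraries and at 725, 568 and 567 CPM in PGE2 libraries. The libraries numbered 1 were highest in both groups and did not differ from each other by more than 1%, whereas pairs 2 and 3 differed by 1.20-fold and 1.22-fold. The means were 555 ± 151 and 620 ± 91.1 CPM (SD, n = 3 each), and the unpaired log2 fold change was 0.16 ± 0.200 (edgeR adjusted p = 0.690). Without vehicle library 1 that value was 0.40, and without PGE2 library 1 it was 0.03, with neither past the threshold.

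Loxl4 (ENSMUSG00000025185, chromosome 19, 42593982 to 42612813, minus strand) was the least abundant member. It was at 33.1, 26.2 and 25.3 CPM in vehicle libraries and at 34.0, 31.7 and 34.0 CPM in PGE2 libraries. The groups overlapped through vehicle library 1, which lay above PGE2 library 2. The means were 28.2 ± 4.28 and 33.2 ± 1.33 CPM (SD, n = 3 each), the unpaired log2 fold change was 0.23 ± 0.112 (edgeR adjusted p = 0.290), and it was 0.36 without vehicle library 1, still not past the threshold.

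Lox, Loxl1, Loxl2 and Loxl4 were higher under PGE2 in all 3 numbered pairs, a pattern that 26.6% of all tested genes showed. Across 15098 genes, which are not independent replicates, unpaired log2 fold change and transcript length had a Spearman rho of -0.408, with longer transcripts lower. With a length trend removed in each library, the paired fit called all 5 members higher, against 8.82% of tested genes higher and 7.97% lower. Lox was then at 0.45 ± 0.082 (edgeR adjusted p = 0.00202), Loxl2 at 0.48 ± 0.058 (adjusted p = 7.6e-05), Loxl1 at 0.43 ± 0.067 (adjusted p = 0.000625), Loxl4 at 0.26 ± 0.075 (adjusted p = 0.0298) and Loxl3 at 0.22 ± 0.068 (adjusted p = 0.0415). The unpaired fit with that offset called 0.0988% of tested genes and none of the 5, with adjusted p between 0.143 for Loxl1 and 0.675 for Loxl3.

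**Figure D2:**
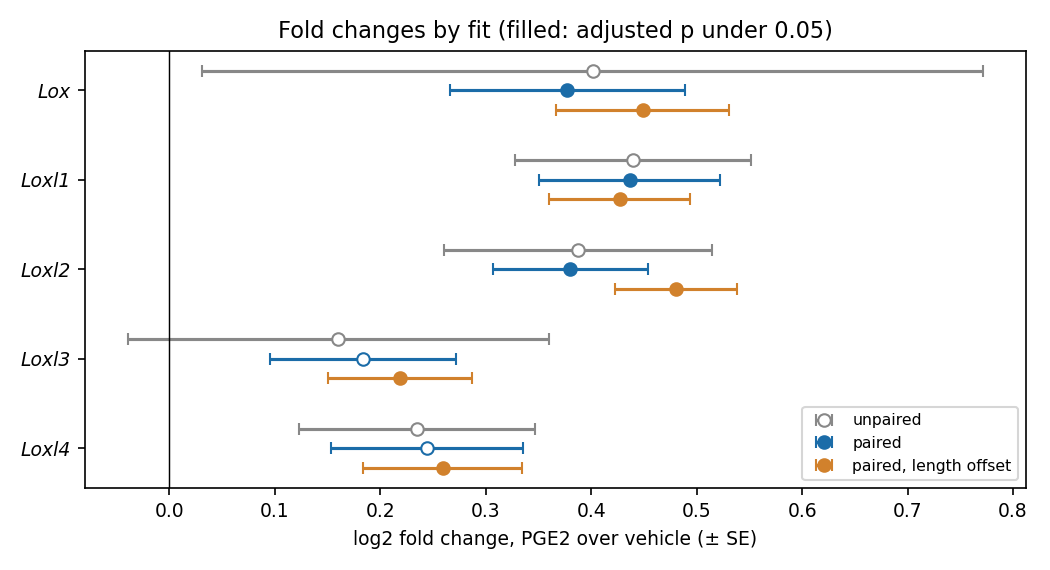
Log2 fold change of PGE2 over vehicle (x axis) for each member from the unpaired fit, the paired fit and the paired fit with the length offset; bars are standard errors and filled points have an adjusted p under 0.05. All 15 points lie above 0, and the bar of Lox shrinks from 0.370 unpaired to 0.111 paired.

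Levels of different genes can be compared once counts are divided by transcript length, here that of the longest annotated transcript (3297 bases for Loxl1 to 5316 bases for Loxl2). If reads from the 43.1% of Loxl2 windows found in Gm21451 were dropped in counting, the Loxl2 level and share below are too low. In CPM per kilobase, Lox was at 978 ± 321 in vehicle and 1291 ± 526 in PGE2 libraries (SD, n = 3 each). Loxl1 followed at 240 ± 17.2 and 326 ± 33.9, Loxl3 at 135 ± 36.9 and 151 ± 22.2, Loxl2 at 36.0 ± 3.32 and 47.1 ± 7.18, and Loxl4 at 7.54 ± 1.15 and 8.89 ± 0.355. This order held in each of the 6 libraries, and the ranges of neighbours over all 6 did not overlap: the lowest Lox value was 609.9 and the highest Loxl1 value 348, the lowest Loxl1 value was 226 and the highest Loxl3 value 178, the lowest Loxl3 value was 113 and the highest Loxl2 value 53.9, and the lowest Loxl2 value was 32.9 and the highest Loxl4 value 9.10.

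Lox made up 57.8%, 74.0% and 74.2% of the family's reads per kilobase in vehicle libraries 1 to 3 and 60.2%, 70.4% and 76.9% in PGE2 libraries 1 to 3. The 2 libraries numbered 1 had the smallest share of Lox and the largest of Loxl3, at 16.9% and 13.8%, against 5.82% to 7.65% in the other 4. Between groups, the mean share of Lox was 68.7% ± 9.43 in vehicle and 69.1% ± 8.41 with PGE2, and that of Loxl1 17.6% ± 3.27 and 18.6% ± 3.82 (SD, n = 3 each). None of the 5 shares passed an exact two-sided permutation test over libraries (p between 0.7 and 1, all 1 after adjustment over the 5), in a design whose smallest possible p is 0.1.

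**Figure D3:**
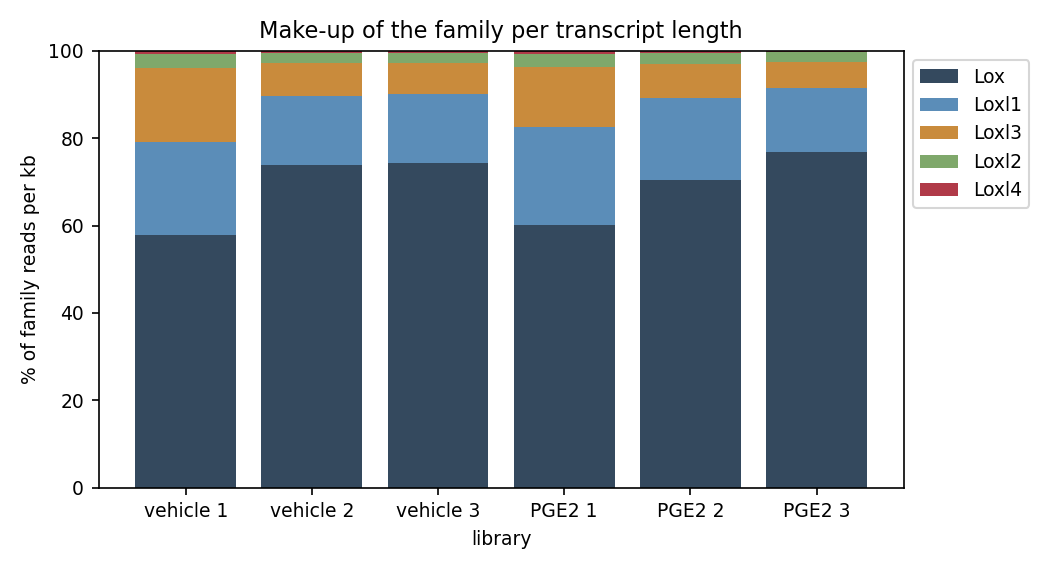
Share of each member in the family's reads per kilobase (y axis, %) in each of the 6 libraries (x axis), stacked to 100%. The Lox share is smallest in the libraries numbered 1, at 57.8% and 60.2%, and the Loxl3 share is largest there.

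The log2 ratio of Lox to Loxl3 counts within a library, from which depth cancels, was 1.99, 3.49 and 3.63 in vehicle libraries 1 to 3 and 2.34, 3.41 and 3.93 in PGE2 libraries 1 to 3. That ratio moved with the library number more than with the treatment. The libraries numbered 1 also had the highest summed myogenic level of their group, given above, and the part of this in the ratio was not tested. Differences in response were compared for all 10 pairs of members by an exact two-sided permutation test over libraries of such log2 ratios. The mean ratio changed by between -0.06, for Lox to Loxl1 and for Loxl3 to Loxl4, and 0.25, for Loxl1 to Loxl3. No pair passed (p between 0.4 and 1, adjusted p at least 0.875), and the groups overlapped for all 10, in a design that cannot go below 0.1. That test does not use the library numbers. Within numbered pairs, 4 of the 10 ratios shifted with the same sign in all 3: Loxl1 to Loxl3 by 0.35, 0.27 and 0.13, Loxl2 to Loxl3 by 0.28, 0.16 and 0.16, Loxl2 to Loxl4 by 0.23, 0.15 and 0.02, and Loxl3 to Loxl4 by -0.04, -0.0090 and -0.13. The 10 ratios share genes and are not independent, and whether 4 exceeds what no shift would give was not tested. Loxl1 to Loxl2 was the steadiest ratio, at 2.09, 2.03 and 2.03 in vehicle and 2.17, 2.15 and 2.00 in PGE2 libraries.

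The genes whose log2 CPM over the 6 libraries was most like that of each member were listed by Pearson correlation among 9144 other genes whose mean reached 10 CPM, as a description, since the libraries share a treatment and a number. Each r is among the highest of 9144 values over 6 libraries, and such a choice gives high r by itself. For Loxl1 these were the collagen prolyl hydroxylase gene P4ha2 (r = 0.996), the angiogenic growth factor gene Vegfa (r = 0.996) and Smim3 (r = 0.996), with paired log2 fold changes of 0.72, 0.54 and 0.73. For Loxl2 they were Lgalsl (r = 0.998), the lysine methyltransferase gene Setd7 (r = 0.997) and Slc10a3 (r = 0.997). For Lox they were Ankzf1, Tbc1d20 and Plekho2 (r = 0.994 each), whose paired log2 fold changes of 0.11, 0.06 and 0.03 were smaller than that of Lox. Loxl3 was most like the kinase genes Tnk2 (r = 0.996) and Mapk14 (r = 0.989) and Wdr96 (r = 0.987), and for Loxl4 the genes closest to it included Bop1 (r = 0.983) and Tmem132a (r = 0.981).

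The lysines that lysyl oxidases act on in collagen are in part hydroxylated beforehand in the endoplasmic reticulum. Among 17 genes of lysyl hydroxylation and collagen folding, all tested, 8 rose and 1 fell in the paired fit, with a list median of 0.30 on the log2 scale. That fit called 6.91% of all tested genes higher and 7.51% lower. Each of the 3 lysyl hydroxylase genes rose, Plod1 by 0.30, Plod2 by 0.33 and Plod3 by 0.32 (edgeR adjusted p = 0.0188, 0.0258 and 0.0336). Plod2, which hydroxylates the collagen telopeptides that cross-links start from, was at 297, 413 and 378 CPM in vehicle libraries and at 370, 474 and 519 CPM in PGE2 libraries, so its groups overlapped. The prolyl hydroxylase gene P4ha2 had the largest rise of the list (0.72 ± 0.076, adjusted p = 0.00034), from 175 ± 25.7 to 289 ± 47.8 CPM (SD, n = 3 each) with no overlap. P4ha3, P3h1, P3h4 and the prolyl isomerase gene Ppib (0.40) also rose, P3h2 fell (-0.59), and the abundant collagen chaperone gene Serpinh1 was at 0.23 and the disulfide isomerase gene P4hb at 0.31 without passing (adjusted p = 0.128 and 0.0511). Of these 9 calls, P4ha2 and P3h2 were the 2 left without pair 2, 7 were left without pair 1, where Plod1 and Plod2 did not pass, and all 9 without pair 3. In the unpaired fit 0 of the 17 passed, with 7 at an unadjusted p under 0.05, and 3 passed by DESeq2 and 0 by limma-voom.

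Copper reaches secreted enzymes through the importer Slc31a1, the chaperone Atox1 and the pump Atp7a, and lysyl oxidases take it up in the secretory pathway. The paired fit called 6.91% of all tested genes higher and 7.51% lower. Of 9 genes of copper handling, all tested, 4 rose and 0 fell in it. These were Atox1 (0.38, edgeR adjusted p = 0.0128), Cox17, a copper chaperone of mitochondria (0.35, adjusted p = 0.0193), and the metallothionein genes Mt1 (0.86, adjusted p = 0.000354) and Mt2 (1.20, adjusted p = 5.9e-05), whose products bind zinc and copper. Mt2 was at 138, 199 and 240 CPM in vehicle libraries and at 318, 532 and 471 CPM in PGE2 libraries, with no overlap. Slc31a1 was at 0.17 and did not pass, nor did Atp7a, which supplies the secretory pathway (-0.50 ± 0.160, adjusted p = 0.0747). With the length offset Atox1 was at 0.16 and did not pass (adjusted p = 0.0685), while Slc31a1 did (0.20, adjusted p = 0.0277). Without pair 1 or pair 2, Mt1 and Mt2 passed and Atox1 and Cox17 did not. In the unpaired fit 0 of the 9 passed, and DESeq2 called 4 and limma-voom 0. An unadjusted p under 0.05 was reached by 5, of which 4 were higher and 1, Atp7a (-0.51), was lower.

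Among 18 genes that cleave or place the secreted enzymes, 17 were tested, and 4 rose and 3 fell in the paired fit, with a list median of 0.02. For all tested genes, the shares called were 6.91% higher and 7.51% lower. The proteinase gene Bmp1, which releases active Lox from its proenzyme, rose by 0.45 ± 0.080 (edgeR adjusted p = 0.0057), and was at 500, 585 and 677 CPM in vehicle and 654, 820 and 942 CPM in PGE2 libraries. Pcolce, an enhancer of that proteinase (0.32, adjusted p = 0.0405), Efemp2, which encodes fibulin-4, a tether of Lox on elastic fibres (0.43, adjusted p = 0.00717), and Fbln1 (0.25, adjusted p = 0.0464) also rose. Postn, whose product periostin brings Bmp1 to Lox in the matrix, fell by 0.58 (adjusted p = 0.00472), as did Lum and Adamts14. Of these 7, Bmp1 and Postn passed with any 1 pair left out, while Pcolce and Fbln1 did not pass without pair 1 or without pair 2, Efemp2 not without pair 2, Adamts14 not without pair 1 and Lum not without pair 3. The most abundant gene of the list, the fibronectin gene Fn1, was at -0.25 (adjusted p = 0.203), and neither Thbs1 (0.02) nor the fibrillin gene Fbn1 (-0.18) passed. Unpaired, 0 of the 17 passed, with 1, Bmp1, at an unadjusted p under 0.05, and DESeq2 and limma-voom called 0.

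The substrates of these enzymes were listed as 11 fibrillar collagen and elastin genes, all tested, of which 1 rose and 3 fell in the paired fit, with a median of 0.04 (0.22 with the length offset). Among all tested genes, 6.91% were called higher and 7.51% lower in the paired fit. The major collagen genes Col1a1 (0.09), Col1a2 (-0.13) and Col3a1 (0.11) did not pass (adjusted p between 0.448 and 0.681), nor did Col5a2 (0.12). Their levels differed widely between libraries: Col3a1 ranged from 3660 to 8858 CPM in vehicle and from 3347 to 11155 CPM in PGE2 libraries. Elastin, Eln, fell by 0.85 ± 0.099 (edgeR adjusted p = 0.00056), from 12.0, 21.5 and 38.3 CPM to 6.18, 13.9 and 19.6 CPM in libraries 1 to 3, with overlapping groups. Col5a3 fell by 0.79 (adjusted p = 0.000107) and the low-level Col2a1 by 0.61, while Col24a1 rose by 0.54 (adjusted p = 0.00457), and of these 4 Col2a1 lost its call without pair 1. With the length offset 4 rose, Col5a1, Col5a2, Col11a1 and Col24a1, and again 3 fell, against 8.82% and 7.97% of all tested genes. Of 6 collagen IV genes, which Loxl2 acts on, 5 were tested, and Col4a5 (-0.38) and Col4a6 (-0.73) fell while the abundant Col4a1 (0.05) and Col4a2 (0.08) did not pass. The collagen IV median was -0.08, and 0.18 with the length offset. Neither Col4a5 nor Col4a6 passed without pair 2, and Col4a6 did not pass with the length offset (adjusted p = 0.0512). In the unpaired fit 0 of the 16 tested genes of these 2 lists passed; 1 of the fibrillar and 2 of the collagen IV genes had an unadjusted p under 0.05, DESeq2 called 1 of each, and limma-voom called 0.

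**Figure D4:**
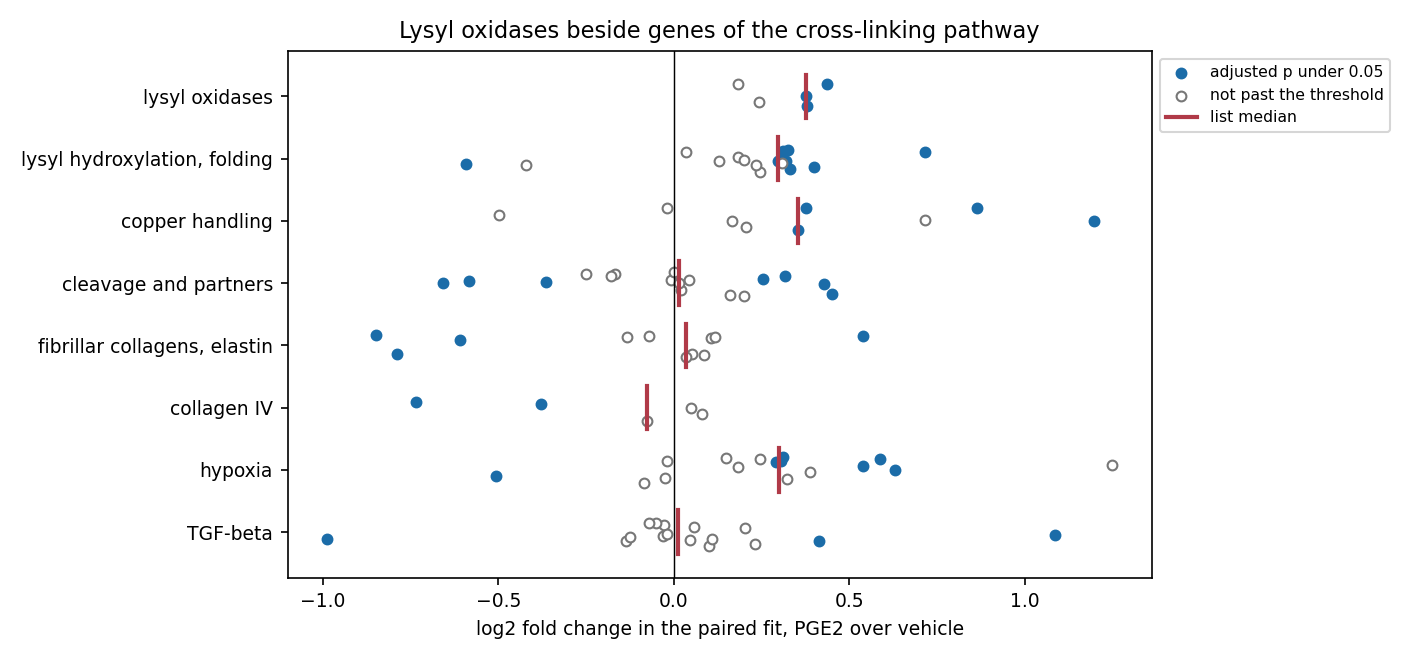
Log2 fold change of PGE2 over vehicle in the paired fit (x axis) for every tested gene of 8 lists (rows), filled where the adjusted p is under 0.05, with red lines at list medians; vertical scatter within a row has no meaning. The medians of the lysyl oxidases (0.38), hydroxylation and folding (0.30), copper handling (0.35) and hypoxia (0.30) rows lie above 0, and those of fibrillar collagens and elastin (0.04) and TGF-beta (0.01) lie near it. With the length offset, which is not plotted, these 6 medians were 0.43, 0.25, 0.20, 0.21, 0.22 and 0.13 in the same order.

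Lox and Loxl2 are known targets of hypoxia-inducible factor and of TGF-beta, and both pathways were listed for that reason. In the paired fit 6.91% of all tested genes were called higher and 7.51% lower. Of 16 tested genes of the hypoxia list, 6 rose and 1 fell in that fit (median 0.30). Those that rose were Hif1a (0.31, edgeR adjusted p = 0.0316), Vegfa (0.54), the glucose transporter gene Slc2a1 (0.29), Ldha (0.31), Pfkfb3 (0.63) and Bnip3 (0.59), while Epas1 fell (-0.51). Vegfa, Pfkfb3 and Bnip3 passed with any 1 pair left out, while Hif1a, Slc2a1, Ldha and Epas1 did not without pair 1 or without pair 2, and Ldha not with the length offset (adjusted p = 0.0534). Among list genes that did not pass in the paired fit, Pgk1 (0.32, edgeR adjusted p = 0.0501) and P4ha1 (0.25, adjusted p = 0.0570) were higher. Ankrd37 (0.39), Egln1 (0.18) and Adm (0.15) were also higher without passing. So was Car9 (adjusted p = 0.0577), at a mean of 0.343 CPM in vehicle and 0.816 CPM in PGE2 libraries. Egln3 (-0.09), Ndrg1 (-0.02) and Arnt (-0.02) were lower without passing. Beside the same 6.91% and 7.51% of all tested genes, 2 of 16 tested TGF-beta genes rose and 1 fell in the paired fit (median 0.01). The TGF-beta target Ccn2, which encodes a matrix-associated growth factor, was among those that rose, by 0.41, though it did not pass without pair 2. The ligand gene Tgfb2 fell by 0.99 (edgeR adjusted p = 0.00235). The TGF-beta targets Tgfbi (0.10) and Smad7 (-0.12) did not pass. With the length offset 4 of the 16 TGF-beta genes rose and 1 fell in the paired fit. The shares over all tested genes were then 8.82% higher and 7.97% lower. In the TGF-beta list 1 of 16 passed unpaired, with 4 at an unadjusted p under 0.05, 2 by DESeq2 and 1 by limma-voom. In the hypoxia list 0 of 16 passed unpaired, with 8 at an unadjusted p under 0.05, 3 by DESeq2 and 0 by limma-voom.

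Other enzymes that cross-link proteins or share the copper amine oxidase chemistry were few here. Of 6, 5 were tested, and the transglutaminase gene Tgm2, which joins glutamines to lysines, rose in the paired fit by 0.75 ± 0.138 (edgeR adjusted p = 0.0116), which with the length offset was 0.76 ± 0.173 and did not pass (adjusted p = 0.0675). Of all tested genes, 6.91% were called higher and 7.51% lower in the paired fit. The amine oxidase gene Aoc3 was at 157 and 165 CPM and did not pass (0.05). The list median of 0.71 rests on Tgm2 and on genes near or under 1 CPM, namely Tgm1 and F13a1. Unpaired, 0 of the 5 passed by edgeR, DESeq2 or limma-voom, with 0 at an unadjusted p under 0.05.

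Loxl2 and Loxl3 have been linked to Snai1, a repressor of epithelial genes, and 9 genes of that programme were listed. Of 8 tested, Snai1 rose by 0.50 (edgeR adjusted p = 0.00296) and Snai2 (-0.49), Cdh2 (-0.32) and Vim (-0.54) fell in the paired fit, and Twist1, Twist2, Zeb1 and Zeb2 did not pass. Over all tested genes that fit called 6.91% higher and 7.51% lower. Without pair 2 Cdh2 and Vim did not pass, nor Cdh2 without pair 1. Snai1 was at 111, 116 and 113 CPM in vehicle and at 137, 178 and 170 CPM in PGE2 libraries, and Snai2 at 106, 113 and 101 CPM and at 74.5, 71.2 and 81.6 CPM, so the related genes moved in opposite directions with no overlap between groups. Unpaired, 0 of the 8 passed, with 3 at an unadjusted p under 0.05, 2 by DESeq2 and 0 by limma-voom.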

How the data were processed

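The authors deposited whole-number counts per gene for 6 polyA RNA libraries, read as paired ends of 100 bases per the labels' protocols; mm10 is the build named by the submitters' processing notes. For aligner, counter, strand setting and annotation release the entry is: not given in the sources used here. Counts were tested with edgeR version 4.0.16 (filterByExpr, TMM scaling, robust quasi-likelihood test) in R version 4.3.3, adjusted over all 15186 genes tested. The members, lists and tests were chosen with earlier results of these data known. Named genes were the 5 members, list genes past the threshold in either fit, the 4 most abundant of each list, and the 3 genes most like each member; other list genes are named as examples, chosen after their values were seen.

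Deviations of log2 CPM (prior count 2) from group means correlated at 0.621, 0.169 and 0.422 for libraries of the same number, each above the 0.1 set as the rule, so the numbers were taken to pair the libraries, a choice that rests on the counts, since no label states it. PGE2 library 2 was closer to vehicle library 3, at 0.252, and PGE2 library 3 was at 0.145 with vehicle library 2. Both values also exceed 0.1, so the rule would pass libraries 2 and 3 swapped as well. Deviations from a mean of 3 libraries cancel within a group, so the values for numbers 2 and 3 depend on that for number 1. They are not separate evidence for pairs 2 and 3. The paired fit adds the number as a block. The length offset is a lowess trend (span 0.3) of each library on longest transcript length in GENCODE M21, known for 99.4% of tested genes. Matching by Ensembl identifier found all 161 list genes. DESeq2 version 1.42.0, limma-voom (limma version 3.58.1), other scalings and filters, and each library or pair left out were alternatives. No library repeated another of its group, with chi-square per degree of freedom of 19.3 to 93.1. Libraries of different groups were not compared in this way. Some genes that the naming rule or a list would name are not reported here, and counts over lists include them.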

Additional observations from a re-analysis of the deposited data

How the results depend on the processing

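All 5 members kept a positive log2 fold change under every alternative run. The count of called genes, 52 as first given, was 2189 with the replicate block, 15 with the length offset, 2549 with both, 932 in DESeq2, 15 in limma-voom and 285 with no filter, and with the block it was 2225 with DESeq2 size factors, 2335 with library totals and 1934 in DESeq2. Leaving out 1 library gave 0 to 120, and leaving out pair 1, 2 or 3 under the block 1372, 1160 and 5097; edgeR gave 0 without vehicle library 2 or 3 or PGE2 library 2 or 3, where 1871, 3697, 1494 and 2597 genes had an unadjusted p under 0.05. Calls of members came with the block: Lox at 0.38 (0.45 with the length offset, 0.37 with DESeq2 size factors, 0.37 in DESeq2), Loxl1 at 0.44 (0.43, 0.43 and 0.43, and 0.39 with library totals) and Loxl2 at 0.38 (0.48, 0.37 and 0.37, 0.34 with library totals, and 0.38 with Gm21451 added). Loxl3 at 0.22 and Loxl4 at 0.26 passed with block and length offset together, and Loxl1 at 0.43 in unpaired DESeq2. Without 1 pair the blocked values were 0.26 to 0.47 for Lox, 0.38 to 0.48 for Loxl1 and 0.34 to 0.44 for Loxl2. Without 1 library the unpaired values were 0.07 to 0.67 for Lox, 0.39 to 0.52 for Loxl1, 0.28 to 0.50 for Loxl2, 0.03 to 0.40 for Loxl3 and 0.16 to 0.36 for Loxl4. The cause of these differences was not tested. The blocks with DESeq2 size factors, library totals and DESeq2, the added Gm21451 counts and merged exon lengths were chosen after seeing the data. Merged exon lengths moved each member's share by less than 1 SD. The lowest member count in a library was 553. Of 41 pathway genes called with the block, 37 were called with block and length offset, 28 without pair 1, 20 without pair 2 and 40 without pair 3, in the same direction each time, and 0 to 5 unpaired without 1 library. Unpaired values without 1 library ran from -0.036 to 0.58 for Fbln1, below 0 without vehicle library 1 or PGE2 library 3, and from -1.18 to 0.025 for Postn, above 0 without vehicle library 3. These settings for pathway genes were also chosen after seeing the data.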
